A study of Homo sapiens with 3 samples.

Results

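The HSP70 family was followed as 10 genes, picked by symbol from the 57268 rows of a table of read counts per gene: HSPA6, HSPA7, HSPA1A, HSPA1B, HSPA1L, HSPA2, HSPA8, HSPA5, HSPA9 and HSPA4. The family was singled out because HSPA6 had already been seen to lie far above control after ADAR2 overexpression, so the ratios of HSPA6 and HSPA7 against control are given as a description and support nothing further. The cells were HEK293T by source and cell line label, although the library titles say HEK293. HEK293T is a human embryonic kidney line that carries the SV40 large T antigen. The study asked how SRSF9 affects RNA editing by ADAR2. There were 3 libraries, 1 per group: cells overexpressing ADAR2 and SRSF9 together, cells overexpressing ADAR2 alone, and WT cells with no overexpression, called control below. ADAR2, the product of ADARB1, edits RNA by turning adenosine into inosine, and SRSF9 belongs to the SR family of splicing factors. The labels name neither the construct nor its promoter, and none of the 3 groups is described as given an empty vector, so ADAR2 itself and the act of overexpression cannot be told apart. With 1 library per group no difference has a replicate check, so none was tested.

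HSP70 proteins are ATP-driven chaperones that hold exposed stretches of unfolded protein, helped by J-domain proteins that deliver clients and by exchange factors that reset the nucleotide. Constitutive members serve the cytosol, the endoplasmic reticulum and the mitochondria at all times, whereas the inducible members are switched on by heat and other protein damage through heat shock factor 1, which binds repeated GAA and TTC units in promoters. HSPA6 is known as a strictly stress-inducible member, and human HSPA7 is its neighbouring near copy, annotated as a pseudogene. In HEK293 cells HSPA1A and HSPA1B are known to be abundant without any heat shock.

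The libraries held 97875935 counts with both proteins, 132887974 with ADAR2 alone and 152878282 in control. ADARB1 stood at 13647 CPM (counts per 1000000 of the scaled library size) with both proteins and 16100 CPM with ADAR2 alone, against 113.6 CPM in control. SRSF9 stood at 18288 CPM with both proteins, against 369 CPM with ADAR2 alone and 372 CPM in control. All 9 HEK293 markers were at 1 CPM or more in each library, and their summed level was 783 CPM with both proteins, 834 CPM with ADAR2 alone and 828 CPM in control. Of the markers of other cell types, 1 of 5 for fibroblasts, 2 of 5 for blood, 0 of 3 for hepatocytes and 2 of 4 for other epithelial lines reached 1 CPM in each library. Their part in the results was not tested.

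Of the 10 members, 9 had a mean of 1 CPM or more over the 3 libraries, the level that 16072 genes reached. HSPA1L, with a mean of 0.445 CPM, did not. HSPA7 stood at 0.246 CPM in control and passed through the overexpressing libraries alone.

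The upstream sequences of HSPA6 and HSPA1A are shown first because both genes are heat-inducible. Their ratios over control differed widely, and whether the sequences bear on that was not tested. They are RefSeq sequences on GRCh38.p14, plus strand, read toward the gene start, with capitals on the paired heat shock units. The HSPA6 sequence lies at chr1:161524290-161524539. The HSPA1A sequence lies at chr6:31815293-31815463 and stops where GENCODE v29 begins an exon.
HSPA6: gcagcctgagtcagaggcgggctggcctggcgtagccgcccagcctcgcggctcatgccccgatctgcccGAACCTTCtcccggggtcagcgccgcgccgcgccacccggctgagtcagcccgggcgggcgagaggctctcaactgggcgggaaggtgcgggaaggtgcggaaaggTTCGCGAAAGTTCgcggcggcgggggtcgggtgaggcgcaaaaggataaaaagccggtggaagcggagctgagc
HSPA1A: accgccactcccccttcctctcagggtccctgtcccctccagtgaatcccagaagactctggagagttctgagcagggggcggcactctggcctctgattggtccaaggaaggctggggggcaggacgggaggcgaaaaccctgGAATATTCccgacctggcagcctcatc
The letters searched on both strands were GAANNTTC, TTCNNGAA and the 3-unit GAANNTTCNNGAA, which contains the other two. In the 250 bases before the start of 35116 RefSeq genes, these letters were found in 5.78%, 6.62% and 0.441%. HSPA6 held the 3-unit run as TTCGCGAAAGTTC at positions -74 to -62 (-1 is the base before the start) and a further GAACCTTC at -180. HSPA1A held GAATATTC at -106, and HSPA1B held the same letters at -105. The windows of that pair matched in 235 of 251 aligned columns. The HSPA1L window held GAATATTC at -161, but it runs back-to-back with HSPA1A and shares 241 bases of genome with it, so this is the same site.

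The 3-unit run was found outside the inducible members too. HSPA8, a constitutive gene, held 2 of them, GAAAGTTCCAGAA at -230 and TTCTGGAAGGTTC at -55. None of the heat shock letters occurred in the 250 bases before HSPA5, HSPA2, HSPA9 or HSPA4. CCAAT, a common promoter box found in 32% of these windows on either strand, occurred before 6 members. HSPA5 held it at -216, -188, -99 and -66, HSPA1A, HSPA1B, HSPA1L and HSPA8 each held 2 copies, and HSPA2 held 1. The 2 copies before HSPA1L lie in the bases shared with HSPA1A and are the same sites. TATAAA, found in 10.7% of windows, occurred before HSPA1A at -30, before HSPA1B at -29 and, in the bases shared with HSPA1A, before HSPA1L at -235. These matches describe letters in a window, not binding. Units that depart from the exact letters were not searched, so the matches do not rank the strength of the elements. In all, 9 of the 10 members had an entry in the RefSeq table.

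HSPA6 and HSPA7 lie on chromosome 1 and are close copies, which bears on how their reads can be told apart. Their transcripts in GENCODE v29 (GRCh38) matched in 98.2% of 1933 aligned columns, with 27 mismatches and a longest identical run of 310 bases. The gap-free coding stretch of 90 bases with the most differences is printed from the genome, plus strand, at chr1:161525101-161525190 for HSPA6 (bases 443 to 532 of its coding sequence) and chr1:161606733-161606822 for HSPA7. Capitals mark the 7 differing bases.
HSPA6: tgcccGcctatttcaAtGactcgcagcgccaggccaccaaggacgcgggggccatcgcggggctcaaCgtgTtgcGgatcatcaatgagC
HSPA7: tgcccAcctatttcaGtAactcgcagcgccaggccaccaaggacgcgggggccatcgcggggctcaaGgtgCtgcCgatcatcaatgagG
Of all 100-base windows, 27.6% of those in HSPA6 and 34.4% of those in HSPA7 occur in the other copy. HSPA1A and HSPA1B overlap further, sharing an identical run of 1715 bases, and 69.9% and 72.7% of their 100-base windows occur in another gene. The split of reads within each pair is therefore uncertain, and pair sums are given beside the single genes. How reads that match both copies were counted is not given in the sources used here, so the levels of the pair sums are uncertain too.

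HSPA6 had 1410 reads with both proteins and 1947 with ADAR2 alone, against 158 in control. Its level was 14.7 CPM with both proteins and 14.5 CPM with ADAR2 alone, against 1.02 CPM in control. The 2 overexpressing libraries lay close together and far above control. In bulk RNA, more RNA in each cell and more cells with the RNA cannot be told apart. The ADAR2 library was 14.2-fold above control (95% interval 12.1 to 16.8), and the library with both proteins was 14.4-fold above it (12.2 to 17.1). The intervals here and below are exact Clopper-Pearson intervals that cover counting error only. Among 16072 genes HSPA6 stood at rank 2 from the highest ratio of ADAR2 over control, and at rank 5 with both proteins over control. Both ratios use the same control library. Adding SRSF9 to ADAR2 gave a ratio of 1.01 (0.946 to 1.09), and its direction turned with plain library totals (log2 ratio -0.02) and with the GC trend removed (log2 ratio -0.02).

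HSPA7, the copy annotated as an unprocessed pseudogene, had 298 reads with both proteins and 359 with ADAR2 alone, against 38 in control. Its ADAR2 library was 10.9-fold above control (7.77 to 15.6), at rank 3 of 16072, and with both proteins it was 12.6-fold above control (9.0 to 18.2), at rank 6. HSPA7 took 17.4% of the pair's reads with both proteins (15.7 to 19.3%), 15.6% with ADAR2 alone (14.1 to 17.1%) and 19.4% in control (14.1 to 25.6%). The exact intervals of these shares overlap in all 3 libraries, which is not a test of a difference. A shift of reads between the copies was not tested, and the shares depend on how reads matching both copies were counted. Adding SRSF9 to ADAR2 gave HSPA7 a ratio of 1.16 (0.994 to 1.36). The pair's summed counts were 13.5-fold above control with ADAR2 alone (11.7 to 15.7).

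HSPA1A and HSPA1B, the main heat-inducible cytosolic chaperones, were already the most abundant members in control. HSPA1A stood at 1004 CPM with both proteins and 972 CPM with ADAR2 alone, against 794 CPM in control. HSPA1B stood at 1548 CPM with both proteins and 1495 CPM with ADAR2 alone, against 1239 CPM in control. Their ADAR2 libraries were 1.22-fold (1.21 to 1.23) and 1.21-fold (1.20 to 1.21) above control. With both proteins the ratios over control were 1.26 for HSPA1A and 1.25 for HSPA1B. The pair's summed counts were 1.21-fold above control with ADAR2 alone and 1.26-fold above it with both proteins. HSPA1B took 60.6% of the pair's reads with both proteins and 60.6% with ADAR2 alone, against 60.9% in control.

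HSPA1A and HSPA1B stood nearer the top among abundant genes than among all genes. HSPA1A ranked 973 of 16072 genes for ADAR2 over control, and 11 of 1864 genes with a mean of 100 CPM or more. HSPA1B ranked 1146 and 19 by the same counts. Both transcripts are rich in G and C, at 59.7% and 58.7%, and ratios over control moved with GC content across genes. The median log2 ratio of ADAR2 over control was 0.15 for genes with the GC content of HSPA1A and -0.11 for genes with that of HSPA4. With that trend removed, the log2 ratio of ADAR2 over control was 0.15 for HSPA1A, against 0.29 before, and 0.14 for HSPA1B, against 0.27. HSPA6 had 3.69, against 3.82. HSPA1A then ranked 61 of 1840 abundant genes and 2297 of all 15603 genes with a GC value, and HSPA1B 74 and 2451. With both proteins over control they ranked 53 and 68 of 1864 abundant genes, or 133 and 135 of 1840 with the GC trend removed.

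**Figure D1:**
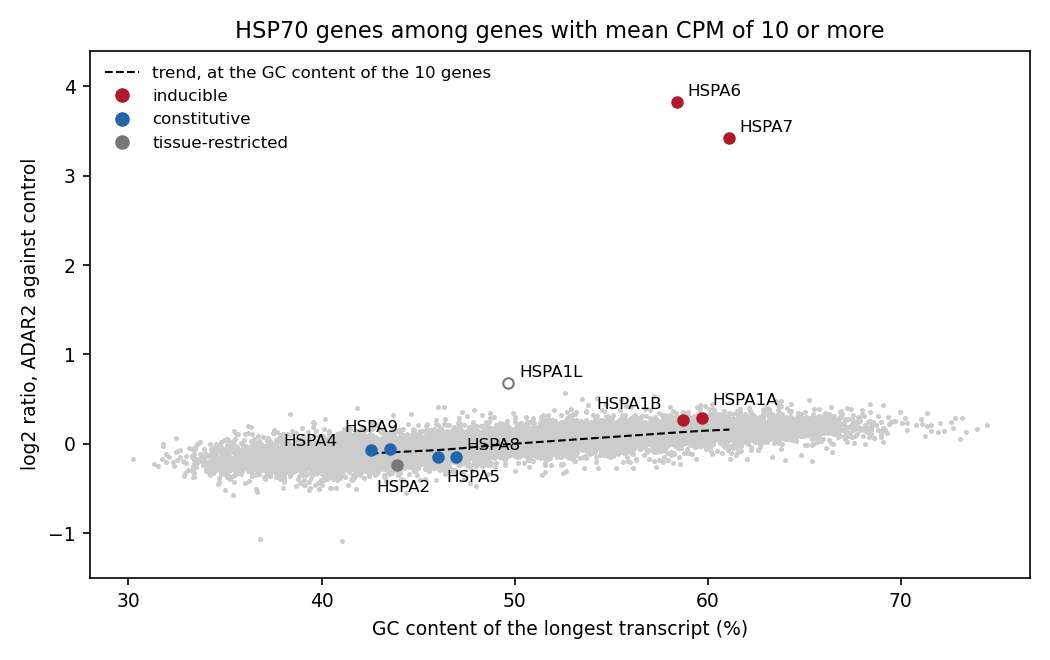
The log2 ratio of ADAR2 over control is plotted against the GC content of each gene's longest transcript, with all genes of mean CPM of 10 or more in grey (3 lie outside the range drawn) and the 10 members marked, HSPA7, HSPA2 and HSPA1L although below that level. HSPA6 at 58.4% GC and HSPA7 at 61.1% GC lie far above the cloud, while HSPA1A and HSPA1B lie within it.

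With ADAR2 alone the 4 constitutive members lay slightly below control, though HSPA9 and HSPA4 lay above it once the GC trend was removed. HSPA8, the cytosolic HSC70, stood at 561 CPM with both proteins and 556 CPM with ADAR2 alone, against 614 CPM in control, and its ADAR2 ratio over control was 0.905 (0.897 to 0.914). HSPA5, the endoplasmic reticulum chaperone BiP, stood at 609 CPM with both proteins and 599.6 CPM with ADAR2 alone, against 666 CPM in control, with an ADAR2 ratio over control of 0.901 (0.893 to 0.909). HSPA9, the mitochondrial mortalin, stood at 447 CPM with both proteins, 426 CPM with ADAR2 alone and 442 CPM in control. HSPA4, a cytosolic HSP110-type exchange factor, stood at 309 CPM with both proteins, 323 CPM with ADAR2 alone and 338 CPM in control. With the GC trend removed the ADAR2 over control log2 ratios turned positive for HSPA9 (0.04, against -0.05 before) and HSPA4 (0.04, against -0.07), while HSPA8 and HSPA5 stayed negative at -0.09 and -0.08. With both proteins over control, HSPA9 was 1.01 and turned below 1 with plain library totals (log2 ratio -0.03).

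Adding SRSF9 to ADAR2 left ratios near 1 among the constitutive members. They were 1.01 for HSPA8 and 1.02 for HSPA5, both below 1 with plain library totals, 1.05 (1.04 to 1.06) for HSPA9 and 0.958 (0.944 to 0.972) for HSPA4.

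The tissue-restricted members were low. HSPA2, best known from male germ cells, had 309 reads with both proteins, 415 with ADAR2 alone and 564 in control, and its ADAR2 ratio over control was 0.847 (0.744 to 0.963). HSPA1L, a testis-expressed gene beside HSPA1A, had 47 reads with both proteins, 70 with ADAR2 alone and 50 in control. Its ADAR2 ratio over control was 1.61 (1.10 to 2.36), below the level filter.

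Compared per length, as reads per kilobase of transcript and 1000000 counts, levels differed widely. HSPA1B and HSPA1A led in control at 491 and 320.0, then HSPA8 at 249, HSPA5 at 170.3, HSPA9 at 93.6 and HSPA4 at 70.1. HSPA2 at 0.676 and HSPA6 at 0.431 followed, and HSPA7 at 0.128 and HSPA1L at 0.127 came last at nearly the same level. With 1 library per group this order has no spread to be set against. With ADAR2 alone, HSPA6 stood at 6.12 and HSPA7 at 1.39, above HSPA2 at 0.572, while the order of the 6 abundant members was the same. Lengths were of the longest principal transcript, and with all annotated exons of a gene joined, HSPA8 came to 126.7 in control and lay below HSPA5.

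**Figure D2:**
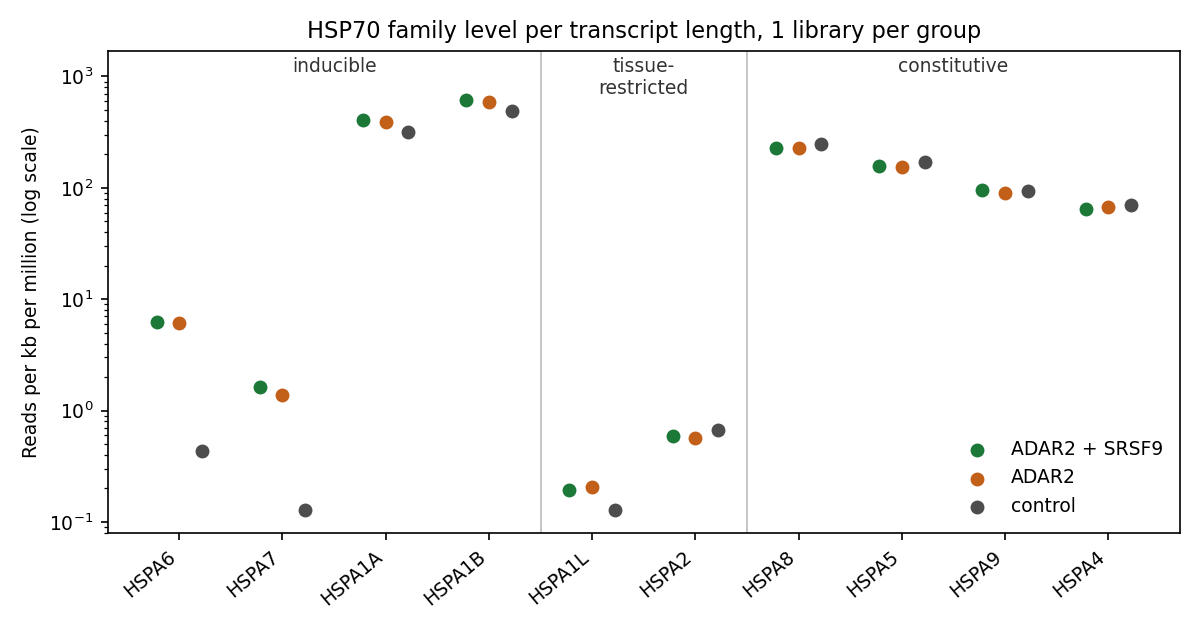
Levels per kilobase and 1000000 counts are shown on a log axis for each member in the library with both proteins, the ADAR2 library and the control library. HSPA6 and HSPA7 are the members whose control point lies far below the other 2 points.

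The split of the family's reads between inducible and constitutive members differed between the libraries. The 4 inducible members took 57.1% of the family's reads with both proteins and 56.6% with ADAR2 alone, against 49.6% in control. The 4 constitutive members took 42.8% with both proteins and 43.4% with ADAR2 alone, against 50.3% in control. The summed inducible level was 449.8 CPM higher with ADAR2 alone than in control, of which HSPA1A and HSPA1B made up 433.9 CPM and HSPA6 and HSPA7 15.9 CPM. The constitutive sum with ADAR2 alone minus that in control was -156.1 CPM. These shares and sums keep the GC trend, and GC content was 58.4 to 61.1% in the inducible members and 42.5 to 47.0% in the constitutive ones. With the trend removed, the log2 ratio of ADAR2 over control was 0.15 for HSPA1A and 0.14 for HSPA1B, against 0.29 and 0.27. The constitutive median was -0.02, against -0.11 before.

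**Figure D3:**
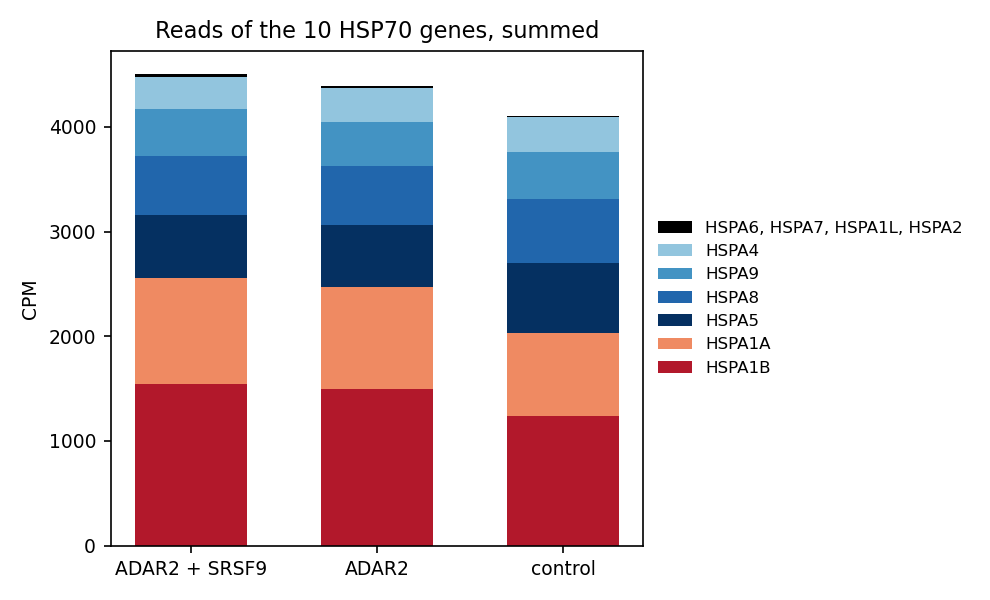
Stacked bars give the CPM of the 10 members in each library, with both proteins, ADAR2 alone and control from left to right. HSPA1A and HSPA1B make up 56.7% of the family's reads with both proteins, 56.2% with ADAR2 alone and 49.6% in control, and the thin black slice holds HSPA6, HSPA7, HSPA1L and HSPA2.

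By the rule of at least 1.5-fold with an interval that excludes 1, 2 of the 9 members were higher with ADAR2 alone than control and 0 lower, where 0.622% and 0.641% of all tested genes were. Those 2 were HSPA6 and HSPA7, whose choice used this contrast. Counting any ratio whose interval excludes 1, 4 members were above control and 5 below, where 31.5% and 32.4% of all genes were. With the GC trend removed it was 6 above and 2 below, HSPA9 and HSPA4 then lying above control and HSPA2 in neither count. Of all genes, 27.0% were then above and 24.2% below. The same 1.5-fold count with both proteins over control was 2 and 0, where 1.56% and 2.43% of all genes were, and by the interval alone 4 members were above and 3 below, where 33.4% and 35.3% of all genes were. With plain library totals 4 were above and 5 below, HSPA2 and HSPA9 being added below, where 27.1% and 42.5% of all genes were. With the GC trend removed 5 were above, HSPA9 being added, and 2 below, where 28.3% and 29.5% of all genes were. Adding SRSF9 to ADAR2 gave 0 higher and 0 lower at 1.5-fold, where 0.89% and 2.53% of all genes were, and by the interval alone 4 above and 1 below, where 27.5% and 23% of all genes were. The 4 above were HSPA1A, HSPA1B, HSPA5 and HSPA9 and the 1 below was HSPA4. That split depended on scaling. With plain library totals 1 member was above ADAR2 (HSPA9) and 3 below (HSPA8, HSPA5 and HSPA4), where 16.7% and 35.0% of all genes were. With the GC trend removed it was 3 above and 1 below, HSPA1A no longer being called, where 22.7% and 26.5% of all genes were. The median log2 ratio of the inducible members minus that of the constitutive ones was 1.96 for ADAR2 over control, 2.12 for both proteins over control and 0.03 for both proteins over ADAR2, the last turning to -0.01 with the GC trend removed. Without HSPA6 and HSPA7 these were 0.39, 0.46 and 0.03, with the GC trend kept. The median over all genes lay between -0.01 and 0.01.

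**Figure D4:**
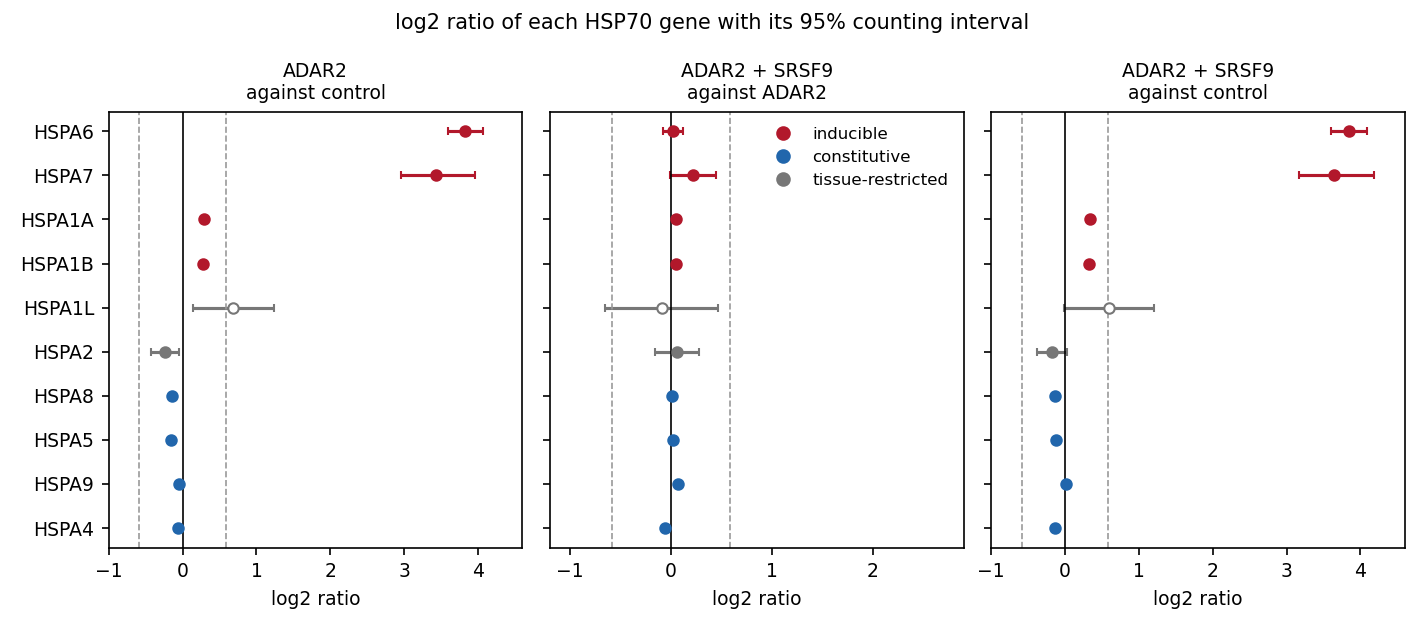
Log2 ratios of the members with 95% counting intervals are shown for ADAR2 over control, both proteins over ADAR2 and both proteins over control, with dashed lines at 1.5-fold and an open symbol for HSPA1L. The middle panel has its own narrower axis, and no member reaches a dashed line there with an interval that excludes 1.

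The partners of HSP70 were read from lists drawn up for this family, first for ADAR2 over control. Of all tested genes, 0.622% were called 1.5-fold higher and 0.641% lower in that comparison. Among 16 heat-shock-induced genes outside HSP70, 0 were called at 1.5-fold. By the interval alone 9 of the 16 were above control and 3 below (HSP90AA1, HSPD1 and CHORDC1, of which CHORDC1 turned to a log2 ratio of 0.07 with the GC trend removed), where 31.5% and 32.4% of all genes were, and the list's median log2 ratio was 0.05, or 0.01 with the GC trend removed. HSPB1, a small heat shock protein that holds unfolded clients, stood at 110.4 CPM with both proteins and 119 CPM with ADAR2 alone, against 87.6 CPM in control. Its log2 ratio of ADAR2 over control was 0.44, the largest of that list, and 0.26 with the GC trend removed. DNAJB1, the J-domain partner of inducible HSP70, stood at 83.1 CPM with both proteins and 98.7 CPM with ADAR2 alone, against 78.3 CPM in control. Its log2 ratio of ADAR2 over control was 0.33, or 0.28 with the GC trend removed, which was then the largest of the list. The log2 ratio of both proteins over ADAR2 for DNAJB1 was -0.25. With both proteins over control the log2 ratio was 0.33 for HSPB1 and 0.09 for DNAJB1, or 0.08 and 0.02 with the GC trend removed.

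Of 42 J-domain co-chaperones, which deliver clients to HSP70, 1 was called higher with ADAR2 alone than control, where 0.622% of all genes were. It was DNAJC30, a mitochondrial member, at 5.05 CPM with ADAR2 alone against 3.21 CPM in control (log2 ratio 0.65, and 0.58 with the GC trend removed, under the threshold). The list's median was -0.04, or 0.01 with the GC trend removed. By the interval alone 12 of the 42 were above control and 18 below, where 31.5% and 32.4% of all genes were. Against the same shares, the counts above and below were 3 and 3 of 10 exchange factors. They were 4 and 4 of 8 tetratricopeptide and other partners, and 0 and 3 of 7 distant proteins. Among 10 exchange factors 0 were called, with a median of -0.01, or 0.05 with the GC trend removed. Their largest log2 ratio was in HSPBP1 at 0.27. HSPBP1 had 0.08 with the GC trend removed. Among 8 partners, most of them with tetratricopeptide repeats, 0 were called, with a median of -0.01, or 0.00 with the GC trend removed. Their largest log2 ratio was in the ubiquitin ligase STUB1 at 0.36. STUB1 had 0.17 with the GC trend removed. Among 7 distant HSP70 and HSP110 proteins 0 were called, with a median of -0.04, or -0.01 with the GC trend removed. Their largest log2 ratio was in HSPA13 at -0.16, which turned to 0.01 with the GC trend removed.

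The list of heat shock factors, which includes the binding protein HSBP1, had 0 of 4 called. Its median was 0.09, or 0.04 with the GC trend removed. By the interval alone 2 of the 4 were above control and 2 below, where 31.5% and 32.4% of all genes were. HSF1, the main heat shock factor, stood at 91.97 CPM with both proteins and 94.5 CPM with ADAR2 alone, against 80.3 CPM in control. Its log2 ratio of ADAR2 over control was 0.24, or 0.05 with the GC trend removed. HSF2 had -0.20 and HSF4 had 0.29, the largest of the list, or -0.07 and 0.12 with the GC trend removed. Of 16 endoplasmic reticulum stress genes listed beside HSPA5, 1 was called higher, DDIT3, the stress transcription factor CHOP, at 8.28 CPM with both proteins and 9.66 CPM with ADAR2 alone, against 6.16 CPM in control, where 0.622% of all genes were called higher with ADAR2 alone. Its log2 ratio of ADAR2 over control was 0.65, and the list's median was 0.00. By the interval alone 8 of the 16 were above control and 6 below, where 31.5% and 32.4% of all genes were.

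With both proteins, 0 genes of these lists were called over ADAR2 alone, where 0.89% of all genes were higher and 2.53% lower. Over control 0 were called too, where 1.56% of all genes were higher and 2.43% lower. The largest log2 ratio of both proteins over ADAR2 was -0.53, in DNAJA4, which stood at 0.793 CPM with both proteins and 1.15 CPM with ADAR2 alone. The largest over control was -0.58, in DNAJB4, which stood at 14.1 CPM with both proteins and 21.0 CPM in control, and it was -0.40 with the GC trend removed. HSPA13, a distant member of the endoplasmic reticulum, had -0.25 over ADAR2 and -0.41 over control, or -0.25 and -0.23 with the GC trend removed. Over ADAR2, the largest exchange factor was SIL1 at 0.21, or 0.17 with the GC trend removed. The largest of the tetratricopeptide and other partners was SGTB at -0.15, or -0.14 with the GC trend removed.

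Genes were also searched for a pattern close to HSPA6 or HSPA1A. HSPA6 was picked for its high ratio over control, so its distance from other genes follows from that choice and is only a description. Each gene was placed by its log2 ratios of ADAR2 over control and of both proteins over control, over 3 libraries. HSPA7 lay 0.446 from HSPA6. Of the other genes, 16061 were searched, which leaves out the 9 tested members, ADARB1 and SRSF9, and 0 of them lay within 2 units. The nearest were ITGB2 at a distance of 3.05, MIR22HG at 3.64, CDHR2 at 3.84, RP13-20L14.6 at 4.04 and a Y_RNA row at 4.05. Around HSPA1A, 156 genes lay within 0.05, the nearest of them DDIT4, ISYNA1, LGALS3BP, OBSL1 and WDR62. Both coordinates share the control library.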

How the data were processed

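RNA of 3 HEK293T libraries was purified with Trizol and prepared with a directional kit, per the labels' protocols. The deposited table holds raw read counts for each gene. The submitters' processing notes name the build hg19 and STAR, Picard, GATK and SAMtools. Neither the counting program nor its use of strand is given in the sources used here, so overlapping genes may share reads.

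Counts were scaled by TMM (edgeR 4.0.16, R 4.3.3) and given as CPM. Log2 ratios used a prior count of 0.5. Fold ratios and the 95% Clopper-Pearson intervals used no prior count. All were computed in Python 3.11.15 with scipy 1.17.1. The limit that 3 counts set was 0.0313 CPM with both proteins, 0.0223 CPM with ADAR2 alone and 0.0194 CPM in control. A gene was called at 1.5-fold with a mean CPM of 1 or more and an interval excluding 1. Gene lengths, GC content and sequence overlaps came from GENCODE v29 (GRCh38), and upstream sequences from RefSeq (GRCh38.p14). The GC trend was the median in 50 bins smoothed over 5, fitted on 9594 protein-coding genes whose mean CPM reached 10.

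The named genes are all members, the called or else largest member of each list, and the 5 genes nearest to HSPA6 and to HSPA1A. Outside that rule, HSP90AA1, HSPD1 and CHORDC1 are named as the genes of their list with an interval below control. HSF1 and HSF2 were named after their values were seen, and the ranks among genes of 100 CPM or more and the joined-exon lengths were added then. Members and lists were chosen with earlier results of these data known. The calculation was tested on simulated data. No p-value is given. The alternatives were DESeq2 1.42.0 size factors, other scalings and filters, a prior count of 5, a 2-fold threshold, summed copies, GC trend removal and other class summaries.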

Additional observations from a re-analysis of the deposited data

How the results depend on the processing

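The count of members at 1.5-fold in ADAR2 over control was 1 with a mean CPM of 10 or more, with a control CPM of 1 or more, and with near-identical copies summed, and it was 1 under the same 3 settings for both proteins over control. With no filter on low counts it was 3 in ADAR2 over control, HSPA1L being added. The median difference between inducible and constitutive members in ADAR2 over control was 0.397 under each of those 2 filters and 0.387 without HSPA6 and HSPA7. For both proteins over control it was 0.467 under each filter, 0.458 without HSPA6 and HSPA7 and 1.84 with the GC trend removed. For both proteins over ADAR2 the count was 0 in every setting. In that comparison HSPA8 and HSPA5 lay below ADAR2 with plain library totals (log2 ratios -0.03 and -0.02), against 0.01 and 0.02 by TMM, and HSPA8 also turned below with TMM without mitochondrial genes, ADARB1 and SRSF9. No paired analysis was possible because each group has 1 library, and no library could be left out for the same reason. Depth limits HSPA7 and HSPA1L most, with 38 and 50 reads in control.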

Other observations

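HSPA8 has many processed copies in the genome. The 17 rows named as HSPA8 pseudogenes, looked up after the table was seen, held 890 reads with both proteins, 1905 with ADAR2 alone and 2130 in control, which came to 1.65%, 2.55% and 2.24% of the HSPA8 reads in those libraries. Their summed level with both proteins was 0.654 of that with ADAR2 alone (95% counting interval 0.604 to 0.709), whereas the HSPA8 row itself had a ratio of 1.01. No 100-base window of the HSPA8 transcript occurs in another gene, and 15.4% of its 50-base windows do. The row named as an HSPA9 pseudogene stood at 3.23 CPM with both proteins, 3.79 CPM with ADAR2 alone and 3.35 CPM in control. HSPA9 itself had a ratio of 1.05 for both proteins over ADAR2. The part of read assignment in these pseudogene levels was not tested.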
